A study of Mus musculus with 2 samples.

Results

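Transcripts of 7 tetraspanins of leukocyte and granule membranes were measured in bone marrow eosinophils. The genes were Cd9, Cd63, Cd81, Cd82, Cd37, Cd53 and Cd151, taken as the rows of the deposited tables whose gene symbol equals one of these names, with reads and RPKM (reads scaled to transcript length and to library depth) summed over the rows of a gene. All 7 were found among 23343 genes. Cells positive for CCR3 and SiglecF were sorted in 2 independent sorts from the pooled marrow of naïve C57BL6J mice, and poly(A) RNA was sequenced in stranded libraries made with dUTP. Both libraries belong to 1 group, so no comparison between conditions exists, and the sources used here do not say how many mice were pooled. Sort 1 and sort 2 are named by the numbers in their titles.

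Tetraspanins are small proteins that cross the membrane several times and gather integrins, receptors and other tetraspanins into patches of membrane. Cd37 and Cd53 are restricted to leukocytes, whereas Cd9, Cd81, Cd82 and Cd151 are found in many tissues. Cd63 sits in the membranes of lysosomes, secretory granules and multivesicular bodies and reaches the cell surface when granules fuse with it, and in human basophils its appearance there is used as a sign of degranulation. In human blood CD9 is a surface marker that eosinophils carry at higher levels than neutrophils.

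The tables held 10087743 reads in sort 1 and 9264150 reads in sort 2. All 8 eosinophil markers, among them Prg2, Epx, Ccr3 and Siglec5 (the table's symbol for the SiglecF gene), had at least 1 RPKM in both sorts, with summed levels of 2720 RPKM in sort 1 and 3515 RPKM in sort 2. All 9 neutrophil markers did so too, with sums of 1967 and 1661 RPKM in sorts 1 and 2. Sort 1 had 47487 reads of Xist and none of the Y-linked gene Kdm5d, against 5 and 756 in sort 2. Xist is expressed in female cells and Kdm5d in male cells, so sort and the sex of the mice cannot be told apart here. Rn45s, the ribosomal RNA precursor, had 914623 reads in sort 1 and 89209 in sort 2. In bulk RNA, fewer cells of a type and less RNA per cell cannot be told apart.

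The starts of 6 of the 7 genes matched entries of the RefSeq promoter table (build GRCm38.p6), which gives 250 bases before and 50 bases after each start. The promoters below are those of the 2 leukocyte-restricted genes and of 3 widely expressed ones, with both starts of Cd151 because its reads were divided between them. Capitals mark the GC box GGGCGG and the core GAGGAA of sites bound by PU.1, a myeloid transcription factor of the ETS family, on either strand. Each reads 5′ to 3′ along the gene's own strand.
Cd53, chr3:106790100-106790399, minus strand: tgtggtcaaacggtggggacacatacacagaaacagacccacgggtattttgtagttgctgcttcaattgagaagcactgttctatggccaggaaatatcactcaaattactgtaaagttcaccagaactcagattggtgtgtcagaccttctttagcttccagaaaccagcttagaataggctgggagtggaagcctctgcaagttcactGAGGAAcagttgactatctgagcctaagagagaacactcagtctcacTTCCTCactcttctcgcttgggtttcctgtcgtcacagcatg
Cd37, chr7:45238790-45239089, minus strand: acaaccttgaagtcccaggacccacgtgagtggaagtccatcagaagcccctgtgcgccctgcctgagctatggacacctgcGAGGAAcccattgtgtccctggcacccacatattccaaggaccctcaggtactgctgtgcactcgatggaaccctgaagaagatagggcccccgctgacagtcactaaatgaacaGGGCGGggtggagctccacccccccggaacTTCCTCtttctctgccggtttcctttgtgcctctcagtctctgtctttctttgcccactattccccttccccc
Cd9, chr6:125494711-125495010, minus strand: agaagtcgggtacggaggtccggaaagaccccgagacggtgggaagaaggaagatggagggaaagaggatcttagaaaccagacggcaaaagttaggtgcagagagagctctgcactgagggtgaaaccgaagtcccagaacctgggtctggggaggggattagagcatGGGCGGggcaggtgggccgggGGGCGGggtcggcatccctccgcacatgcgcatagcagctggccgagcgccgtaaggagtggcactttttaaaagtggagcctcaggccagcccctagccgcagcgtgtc
Cd81, chr7:143052500-143052799, plus strand: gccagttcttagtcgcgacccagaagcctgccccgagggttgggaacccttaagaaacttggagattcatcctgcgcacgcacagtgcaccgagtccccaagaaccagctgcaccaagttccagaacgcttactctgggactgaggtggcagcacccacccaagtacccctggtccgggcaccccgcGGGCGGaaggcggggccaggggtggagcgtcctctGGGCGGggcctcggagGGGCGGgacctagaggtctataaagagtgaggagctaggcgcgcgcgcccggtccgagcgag
Cd151 upstream start, chr7:141467112-141467411, plus strand: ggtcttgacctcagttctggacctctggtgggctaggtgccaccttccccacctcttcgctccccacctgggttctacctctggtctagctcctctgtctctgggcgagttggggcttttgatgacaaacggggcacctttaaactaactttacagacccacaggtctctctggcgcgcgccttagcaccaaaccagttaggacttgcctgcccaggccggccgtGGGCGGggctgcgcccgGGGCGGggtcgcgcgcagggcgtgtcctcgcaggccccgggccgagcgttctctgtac
Cd151 downstream start, chr7:141468539-141468838, plus strand: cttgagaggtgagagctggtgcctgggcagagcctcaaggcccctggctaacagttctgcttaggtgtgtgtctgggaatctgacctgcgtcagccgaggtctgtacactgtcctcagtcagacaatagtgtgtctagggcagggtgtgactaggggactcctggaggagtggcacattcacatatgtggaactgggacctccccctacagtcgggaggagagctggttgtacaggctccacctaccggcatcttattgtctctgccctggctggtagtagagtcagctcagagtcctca

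The promoter of Cd53 held GAGGAA at 2 places and no GC box, and its GC content was 46.3% with 4 CpG dinucleotides. That of Cd37 also held GAGGAA at 2 places, one of them beginning 23 bases upstream of the start, with 1 GC box. The promoters of Cd9 and Cd81 held 2 and 3 GC boxes and no GAGGAA, with 18 and 23 CpG dinucleotides. The start of Cd82 to which its reads were assigned, at 93462502 on chromosome 2, had 1 GC box and 15 CpG. The upstream start of Cd151 had 2 GC boxes and 20 CpG, and the downstream start held neither motif and had 4 CpG. Over all 32851 promoters of the table, 35.7% held GGGCGG and 28.3% held GAGGAA on either strand, the median GC content was 52.7% and the median number of CpG was 7. AGATAA, a form of the sequence bound by GATA factors, was in 11.2% of all promoters and in none of the 11 RefSeq promoters of the 7 genes. Other forms, such as AGATAG, which occurs in the printed promoters of Cd37 and Cd53, were not counted. The Cd63 entry of that table, whose start matched neither deposited start, held GAGGAA at 2 places and no GC box, as did the Cd82 start at 93461851, to which no reads were assigned. No marked motifs overlapped. Such matches describe letters in a window and show no binding, and binding was not measured here.

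All 7 genes were detected, meaning at least 1 RPKM in both sorts, beside 30.2% of all genes. They fell into a high set of Cd37, Cd53 and Cd63, a middle set of Cd9 and Cd81, and a low set of Cd82 and Cd151. The high set held 80.1% of the summed RPKM of the 7 genes in sort 1 and 81.6% in sort 2. Levels in RPKM are per length, so a comparison between genes depends on the transcript lengths used. For some genes the deposited lengths differ from those in GENCODE.

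**Figure D1:**
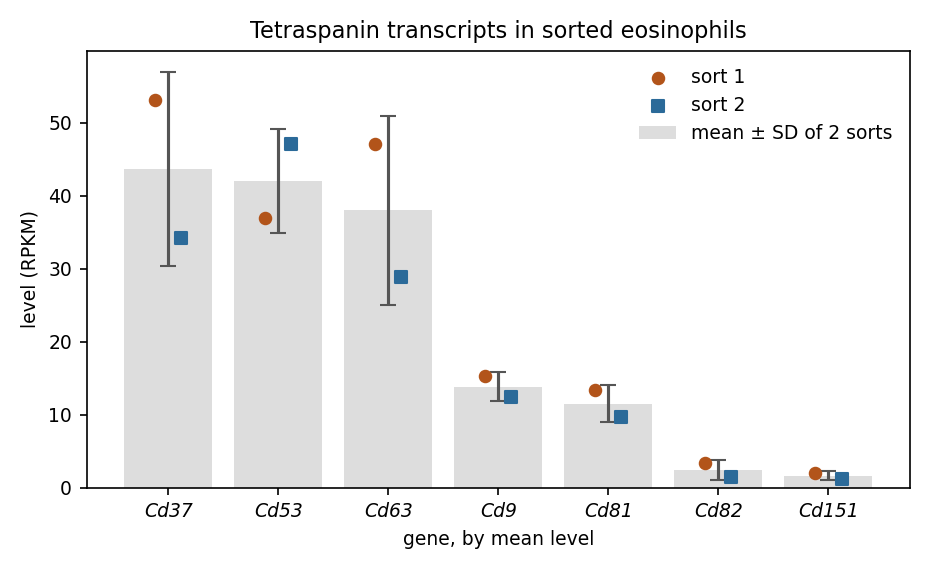
Level of each tetraspanin in RPKM, with a circle for sort 1, a square for sort 2, and a bar with its error for the mean ± SD of the 2 sorts. Cd37, Cd53 and Cd63 sit between 28.8 and 53.1 RPKM, Cd9 and Cd81 between 9.74 and 15.2, and Cd82 and Cd151 between 1.24 and 3.45.

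Of the leukocyte-restricted pair, Cd37 had 53.1 RPKM in sort 1 and 34.2 RPKM in sort 2, a mean of 43.7 ± 13.3 (SD, n = 2). Cd37 is best known from B cells, where it is abundant. It ranked 223 of all 23343 genes by mean RPKM. Cd53, a pan-leukocyte tetraspanin, had 37.0 RPKM in sort 1 and 47.0 RPKM in sort 2, a mean of 42.0 ± 7.10 (SD, n = 2), and ranked 237. The ranges of the sorts overlapped, and the order of the pair turned round between them, with Cd37 1.44 times Cd53 in sort 1 and 0.729 times Cd53 in sort 2. In reads not scaled by length, Cd53 led in both libraries, with 4196 reads in sort 1 and 5349 in sort 2, against 2636 and 1705 for Cd37. Its RPKM depends on the transcript model. The deposited values imply a length of 2811 bases, against 1742 in the GENCODE transcript matched by accession, and on that shorter length Cd53 would have 59.7 RPKM in sort 1 and 75.9 RPKM in sort 2, above Cd37 in both.

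Since Cd37 is abundant in B cells, B cell markers were set beside it. Of 6 such markers 2 reached 1 RPKM in both sorts, with sums over the list of 7.76 RPKM in sort 1 and 5.34 RPKM in sort 2. Ms4a1, which encodes CD20, had 16 and 26 reads, and none of the 6 was at 0. Both sums lie below the level of Cd37 alone, while the part of these cells in its level was not tested. Neutrophil markers summed to far more, 1967 RPKM in sort 1 and 1661 RPKM in sort 2, above the level of Cd37 in both. The part of neutrophils in the level of Cd37, or of any other tetraspanin, was not tested.

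Cd63, the granule and lysosome tetraspanin, had 47.1 RPKM in sort 1 and 28.8 RPKM in sort 2, a mean of 38.0 ± 12.9 (SD, n = 2), and ranked 284. Its ranges overlapped with those of Cd37 and Cd53. Within a library its ratio to Cd37 varied little, Cd37 being 1.13 times Cd63 in sort 1 and 1.19 times in sort 2. Pseudogenes of Cd63 and Cd9 are annotated in GENCODE, and the sources used here do not say how shared reads were counted. Of 5 basophil and mast cell markers 3 reached 1 RPKM in both sorts, with sums of 15.1 RPKM in sort 1 and 20.4 RPKM in sort 2, and each of the 5 had reads in both sorts. Their part in the level of Cd63 was not tested.

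Cd9, a partner of integrins in adhesion, had 15.2 RPKM in sort 1 and 12.4 RPKM in sort 2, a mean of 13.8 ± 2.00 (SD, n = 2). Megakaryocytes and platelets also carry much Cd9, and 1 of their 5 markers, Itga2b, reached 1 RPKM in both sorts. That list summed to 3.4 RPKM in sort 1 and 2.62 RPKM in sort 2. Gp1ba, a platelet receptor subunit, had 71 reads in sort 1 and 46 in sort 2, Gp9 had 5 and 1, the platelet chemokine Pf4 had 4 and 2, and Ppbp had 0 and 2. The part of platelets in the level of Cd9 was not tested. Cd81, which is found on most leukocytes and many other cells, had 13.3 RPKM in sort 1 and 9.74 RPKM in sort 2, a mean of 11.5 ± 2.55 (SD, n = 2). The ranges of Cd9 and Cd81 overlapped, and both lay apart from the high set and from the low set. By reads not scaled by length, Cd81 was above Cd9 in sort 1, with 820 against 736 reads, and the genes were about equal in sort 2, with 600 and 601.

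Cd82, a metastasis suppressor known to restrain integrin-dependent migration, had 3.45 RPKM in sort 1 and 1.42 RPKM in sort 2, a mean of 2.44 ± 1.43 (SD, n = 2). Cd151, a partner of laminin-binding integrins, had 2.07 RPKM in sort 1 and 1.24 RPKM in sort 2, a mean of 1.65 ± 0.583 (SD, n = 2). The ranges of this pair overlapped, and both means lay below 4.03 RPKM, the median of the detected genes. The laminin-binding integrin subunits known to pair with Cd151 were low or without reads, with Itga6 at 1.04 and 0.925 RPKM in sorts 1 and 2, Itga3 with 2 reads and none, and Itga7 with no reads in either. A count of 0 allows up to 3 reads, or a CPM (reads scaled to library depth alone) of 0.297 in sort 1 and 0.324 in sort 2, and this limit covers counting error only.

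The 7 genes were also placed within the whole tetraspanin family. Of 33 family symbols 31 were in the tables, and 14 of these were detected, the 7 named genes and 7 of the other 24. The 7 held 78.8% of the family's summed RPKM in sort 1 and 75.5% in sort 2. Tspan32, a tetraspanin of blood cells, had 15.6 RPKM in sort 1 and 9.60 RPKM in sort 2, and Tspan13 had 10.03 and 13.3 RPKM. These levels overlap with those of Cd9 and Cd81. By mean level Cd82 stood at place 12 of the 31 and Cd151 at place 13.

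Other detected family genes were Tspan2 at 4.27 ± 1.04 RPKM and Tspan31 at 1.17 ± 0.0926 RPKM (SD, n = 2). Tspan5, Tspan14 and Tspan17, with Tspan10, Tspan15 and Tspan33, belong to a subgroup that binds the sheddase Adam10 and guides it to the cell surface, here grouped after their values were seen. Tspan5 had 6.58 ± 0.241, Tspan14 4.10 ± 0.465 and Tspan17 2.70 ± 0.00621 RPKM (SD, n = 2), beside Adam10 at 4.05 ± 0.148. The deposited values of Tspan5 imply a length of 3182 bases, against 6653 in GENCODE. Its place above Tspan14 and Adam10 thus depends on the transcript model. The other members of that subgroup were at or near 0, Tspan33 having 7 reads in sort 1 and none in sort 2, Tspan10 2 and none, and Tspan15 none in either. No reads in either sort were found for 7 family genes, namely Tspan7, Tspan8, Tspan11, Tspan12, Tspan15 and the bladder uroplakins Upk1a and Upk1b.

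**Figure D2:**
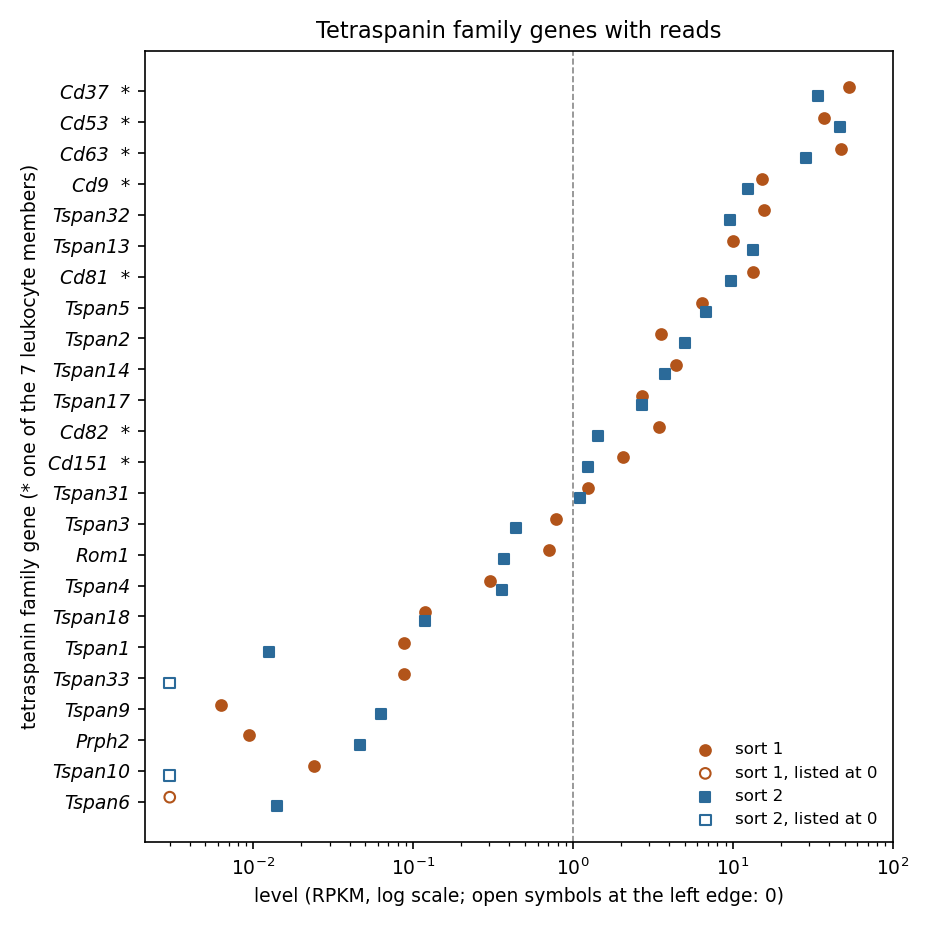
Level in RPKM on a log axis of the 24 tetraspanin family genes with reads, in order of mean level from the top, with a circle for sort 1 and a square for sort 2. The dashed line marks 1 RPKM, open symbols at the left edge mark a value of 0, and stars mark the 7 genes, of which the lowest is Cd151 at 2.07 and 1.24 RPKM.

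Several of the genes lie close to another family gene in the genome. Positions follow the deposited tables (mm10). Cd81, at chr7:143052750-143067930 on the plus strand, lies 33.3 kb from Tspan32, and R74862, on the opposite strand, lies in the gap and reaches across the start of Cd81. Their levels overlapped, with Cd81 at 13.3 and 9.74 RPKM and Tspan32 at 15.6 and 9.60 RPKM in sorts 1 and 2. Cd82, at chr2:93419102-93462950 on the minus strand, lies 84.6 kb from Tspan18, which had 0.118 RPKM in each sort. Cd151, at chr7:141467362-141471481 on the plus strand, lies 3.75 kb from Tspan4, which had 0.304 and 0.360 RPKM. The levels of Cd82 and Cd151 did not overlap with those of these neighbours.

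Proteins known to sit with tetraspanins in membranes were taken as a list of 27 genes, of which 14 were detected. Its highest members were the hyaluronan receptor Cd44 at 67.8 ± 1.63, the self-recognition signal Cd47 at 64.3 ± 13.8, the integrin subunit Itga4 at 54.3 ± 12.9 and the antiviral membrane protein Ifitm3 at 24.3 ± 9.92 RPKM (SD, n = 2). The place of Cd47 above Itga4 depends on the transcript model. Cd47 had 4228 and 5756 reads in sorts 1 and 2, with a GENCODE length of 5250 bases. Itga4 had 17984 and 25332 reads, with a GENCODE length of 9767 bases. Itgb1, the subunit that pairs with Itga4, had 11.6 ± 1.78. The immunoglobulin-family proteins that bind Cd9 and Cd81 most directly were low, Igsf8 with 45 and 25 reads and Ptgfrn with 1 and 4 reads in sorts 1 and 2. Itga7 and Epcam had no reads in either sort. The median of the list was 1.67 RPKM in sort 1 and 2.36 RPKM in sort 2, against 15.2 and 12.4 RPKM for the 7 tetraspanins.

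Of 22 genes of multivesicular bodies, lysosome membranes and extracellular vesicles, where Cd63 is sorted, 21 were detected. The late endosome GTPase Rab7 had 101 ± 14.5, Flot1 41.1 ± 6.99, the lysosome protein Lamp1 38.2 ± 5.51 and Sdcbp, or syntenin, which binds the tail of Cd63, 36.1 ± 2.20 RPKM (SD, n = 2). The lead of Rab7 depends on the transcript model. It had 2303 reads in sort 1 and 2830 in sort 2, against 3846 and 3143 for Lamp1. Their GENCODE lengths are close, at 2159 bases for Rab7 and 2229 for Lamp1. Lamp1 and Sdcbp overlapped in level with Cd63. The exception was Rab27b, a GTPase of granule secretion, with 4 and 5 reads in sorts 1 and 2, whereas its relative Rab27a had 31.7 ± 3.57 RPKM. Between the sorts, 0 of 21 partner and 0 of 21 vesicle genes tested were called different by the exact binomial test described next, beside 7.99% of all tested genes. Its adjusted p was under 0.05 at any fold for 10 partner and 16 vesicle genes, beside 44.5% of all tested genes, and its unadjusted p for 11 and 17, beside 50.5%. These background shares were not matched for read depth. The exact test of edgeR called 0 of either list and had an unadjusted p under 0.05 for 0 of them, beside 6.2% of all tested genes.

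The libraries were then set against each other, gene by gene, by a two-sided exact binomial test of their reads, scaled by TMM (a trimmed mean of ratios) with Benjamini-Hochberg adjustment over the 12347 genes that had 10 reads or more. A call needed both an adjusted p under 0.05 and a 2-fold difference. Sampling noise in 2 libraries is the yardstick here, and no conditions are compared. Over all tested genes the log2 ratios (sort 1 over sort 2) had a median of 0.00, and 90% of them lay between -0.89 and 1.09. For the 7 tetraspanins the median was 0.56, and 6 of the 7 ratios were above 0.

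Cd82 was the 1 of 7 called, and it was higher in sort 1, against a background over all tested genes of 7.99% in either direction and 4.95% in that direction. It had 250 reads in sort 1 and 105 in sort 2, a log2 ratio of 1.17, or 2.25-fold (exact binomial test, adjusted p = 2.44e-12). At any fold all 7 passed the adjusted p, 6 higher in sort 1 and Cd53 lower in sort 1, beside 44.5% of all tested genes in either direction and 21.9% higher in sort 1. Those shares cover genes from 10 reads upward, whereas the least read of the 7, Cd151, had 143 and 89 reads. With more reads this test passes smaller folds, so the shares are not those of genes of like depth. The binomial test has no term for variation between sorts. The exact test of edgeR used the dispersion of the 2 libraries, a biological coefficient of variation of 0.232. It called none of the 7, beside 0.267% of all tested genes. That dispersion was estimated from the same 2 libraries taken as replicates, so the edgeR test was bound to call few genes. With it Cd82 had an unadjusted p of 0.0200 and an adjusted p of 0.566, and the other 6 had unadjusted p-values from 0.178 to 0.641.

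Folds of the other genes were below 2. Cd63 was 1.57-fold and Cd151 1.53-fold higher in sort 1, Cd37 1.48-fold, Cd81 1.31-fold and Cd9 1.17-fold, while Cd53 was 1.33-fold higher in sort 2. Monocyte and macrophage markers, of which 5 of 6 reached 1 RPKM in both sorts, summed to 109 RPKM in sort 1 and 102 RPKM in sort 2. Of that list C1qa, with 16 reads in sort 1 and 0 in sort 2, and C1qb, with 203 and 90, were called higher in sort 1. Of the B cell list Cd79a, with 133 and 57 reads, was called higher in sort 1. Of 4 endothelial and stromal markers, Col1a1, with 1 and 11 reads, and Cxcl12, with 6 and 20, were called higher in sort 2. With the exact test of edgeR none of these 5 markers was called, with adjusted p from 0.0808 for C1qa to 0.776 for Cxcl12. That endothelial and stromal list summed to 10.7 RPKM in sort 1 and 9.98 RPKM in sort 2, nearly all of it Pecam1, which leukocytes also carry, and Cdh5 had 0 and 1 reads. Of 4 T cell markers 0 reached 1 RPKM in both sorts, with sums of 0.980 and 0.578 RPKM in sorts 1 and 2. All 8 eosinophil markers had ratios below 0, with a median log2 ratio of -0.40. Of 9 neutrophil markers 6 had ratios above 0 and 3 below, with a median of 0.23. The part of any of these cells in the ratios of the tetraspanins was not tested.

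Ratios between the sorts moved with transcript GC content across genes. The Spearman correlation of the log2 ratio with GC content was 0.539 over 8680 genes that had 100 reads or more, which all share these libraries. Among the tetraspanins, Cd53 had the lowest transcript GC content, 39.95%, and a log2 ratio of -0.41, while Cd37 had the highest, 56.6%, and a log2 ratio of 0.56. The GC value of Cd53 comes from the shorter GENCODE transcript. After subtraction of a smooth curve of the ratio on GC content, Cd53 stood at -0.06, Cd37 at 0.30, Cd81 at 0.29, Cd9 at 0.38, Cd151 at 0.44, Cd63 at 0.58 and Cd82 at 0.97, under a fold of 2. Cd82 lay above 98.3% of the 872 genes whose GC content was within 1 percentage point of its 54.8%, and Cd63 above 94.5% of 905 such genes.

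**Figure D3:**
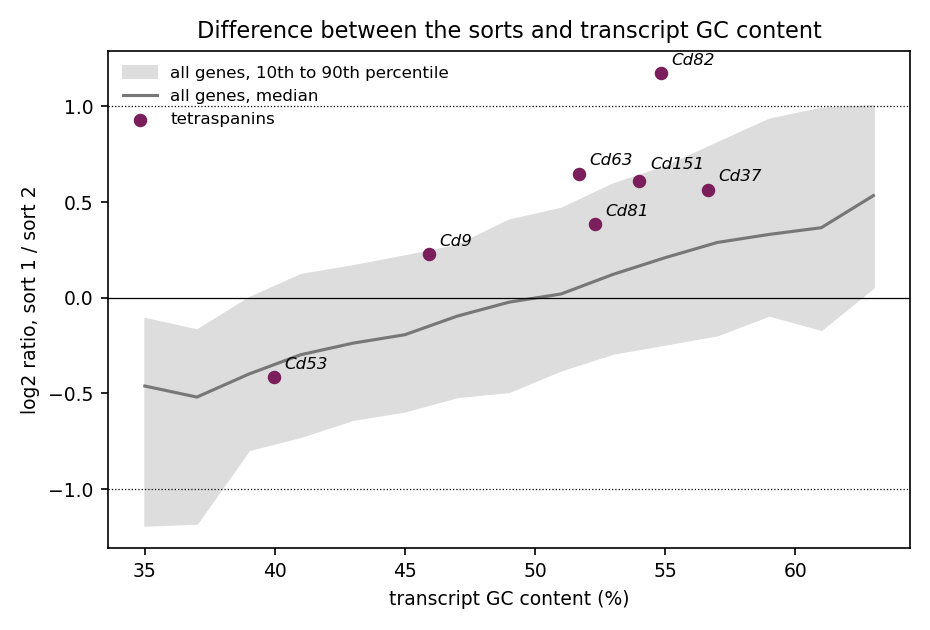
Log2 ratio of sort 1 to sort 2 against transcript GC content in percent, for the 7 tetraspanins (points), with the median (line) and the 10th to 90th percentile (band) of all genes in bins of GC content. Cd82 at 1.17 is the point above the dotted line of a 2-fold difference, Cd63 at 0.65 also lies above the band, and Cd53 at -0.41 lies close to the median of genes of like GC content.

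The tables split Cd63, Cd82 and Cd151 into rows by annotated transcript start, and the other 4 genes had 1 row each. Cd63 had a start at 128908919 and another 947 bases downstream, at 128909866, on chromosome 10. The upstream start was assigned 255 reads in sort 1, or 14.8% of the gene's reads (95% Wilson interval 13.2 to 16.5), and none of 1052 in sort 2, which allows up to 0.285%. Cd151 was assigned 58 reads at its upstream start and 85 at a start 1427 bases downstream in sort 1, against 88 and 1 in sort 2. The downstream start thus held 59.4% of its reads in sort 1 (51.2 to 67.1) and 1.12% in sort 2 (0.199 to 6.09). Of the 4 starts of Cd82, the one 448 bases downstream of the first took all reads in both sorts. The row counts look like rounded estimates of a split among transcripts that share exons. Reads and RPKM of the downstream row of Cd151 imply 1651 bases in sort 1 and 1120 in sort 2, for the same transcript. The intervals take the counts as whole reads and leave out the error of the split. They cover counting error only, and no more than the assignment is described.

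Family genes with several starts varied likewise. Tspan2 had 99.7% of its reads at the upstream start in sort 1 (95% Wilson interval 98.8 to 99.9) and 50% in sort 2 (46.6 to 53.4), whereas Tspan32 had 51.2% (48.0 to 54.3) and 54.6% (50.6 to 58.5). Sums per gene, used for all levels above, do not depend on this split other than through the lengths of the transcripts. Rows of other genes overlapped Cd81 and Cd82 on the opposite strand. R74862 across the start of Cd81 had 12 and 17 reads, and Gm10804 across the start of Cd82 had 28 reads in sort 1 and 7 in sort 2. The sources used here do not say how counting used strand, so reads of Cd82 and Gm10804 in the shared stretch may not be told apart.

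**Figure D4:**
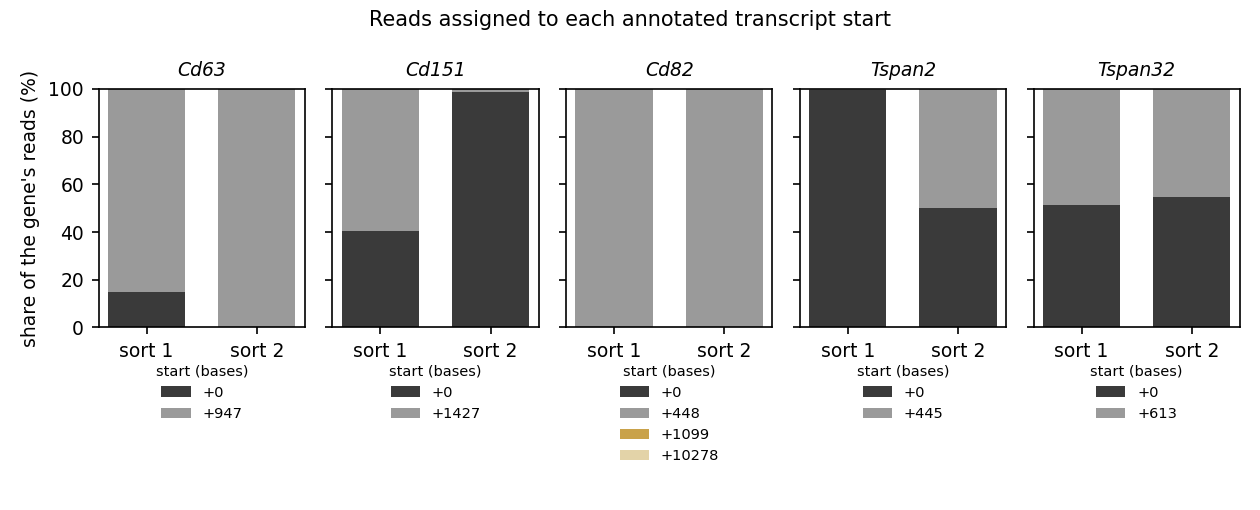
Share of each gene's reads, in percent, assigned to each annotated transcript start, as stacked bars for sort 1 and sort 2, with starts named by their distance in bases from the most upstream one. The split differs between the sorts for Cd63 (14.8% and 0% upstream), Cd151 and Tspan2, is close to even in both sorts for Tspan32, and falls on 1 start for Cd82.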

How the data were processed

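RNA of 2 eosinophil sorts was analysed. Reads were aligned with STAR 2.4.0c to mm10, per the submitters' processing notes; the sources used here name no counting program or strand setting. Whole-number read counts per group of RefSeq transcripts were deposited by the authors, who also deposited RPKM values. The library depth implied by RPKM was 40.4 (sort 1) and 40.5 (sort 2) in units of 1000000 reads, of which the counts held 25.0% and 22.9%.

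Rows were summed per gene (23343 genes from 26099 rows). Libraries were scaled by TMM in edgeR 4.0.16, and log2 ratios of sort 1 to sort 2 used a prior count of 2. The exact binomial test used scipy 1.17.1; edgeR's exact test and DESeq2 1.42.0 size factors were alternatives, and the quasi-likelihood test could not be used with 1 group. The binomial test was first checked on simulated counts of both libraries. The mean chi-square of the counts was 78.5 per gene, much of it from Rn45s, so it does not describe a typical gene. The counts differ, so these are not 1 library deposited again. P-values of the binomial test measure counting error alone, and those of edgeR the spread between these libraries. That spread may be technical or go with the sex of the mice, which cannot be told apart from sort. Transcript GC content and length came from GENCODE M21 transcripts matched by RefSeq accession for 22782 genes, all 7 tetraspanins among them. Adgre4 was looked up as Emr4; Tspan16 and Tspan19 matched no row.

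The 7 genes, lists and tests were chosen with earlier results of these data known. Named genes were the 7, family genes averaging at least 1 RPKM, the 4 highest and the unread genes of the partner and vesicle lists, and the cell type markers, given mostly as counts and sums per list; others were chosen after their values were seen. A result that needs 1 listed gene is not reported here.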

Additional observations from a re-analysis of the deposited data

How the results depend on the processing

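Of 143 values recomputed under alternatives, 113 kept their call, the spread of the sorts or, for counts, a factor of 1.5, and 0 changed direction. Ratios with GC correction, from the deposited RPKM values or with a prior count of 0.5 kept the adjusted p of the main test. For these only the ratio could alter a call. Levels without 1 replicate are the values of the other sort, so they lay within the spread of the sorts by construction. Counts of genes detected could not fall without 1 replicate, because detection needs both sorts. With an RPKM minimum of 10, 4 of the 7 tetraspanins, 5 family, 5 partner and 9 vesicle genes were detected. At a fold of 1.5, 3 of the 7, 7 family and 2245 of all genes were called, and with no fold minimum 7, 13 and 5493, against 1, 2 and 987 at a fold of 2. The second family call was Tspan9, with 1 and 10 reads. A minimum of 50 reads left 1 family call and 481 of all genes, as fewer genes were tested. The edgeR exact test called 0 of the 7 (1 at an unadjusted p under 0.05), 0 of the family (2 so) and 33 of all genes. After GC correction 0 of the 7 and 1 family gene were called. Cd82 was called in neither, with GC correction because its log2 ratio of 0.97 was under a fold of 2. By the exact test of edgeR its log2 ratio was 1.19, but its adjusted p was 0.566. The cause of its difference between the sorts was not tested. Scaled to the reads of the table, mean levels were 181 for Cd37, 177 for Cd53, 157 for Cd63, 57.6 for Cd9, 48.0 for Cd81, 10.01 for Cd82 and 6.85 for Cd151, by construction. With GENCODE lengths, added after the data were seen, Cd53 had 67.8. The row with most reads gave 1.01 for Cd151, with 0.792 in sort 1, so that 6 of the 7 were detected. Ordered by CPM, 3 of the 7 kept their place, and the share of family reads was 71.1% against 77.2% of RPKM. Without replicate 1 or 2, levels ranged from 34.2 to 53.1 RPKM for Cd37 and from 1.24 to 2.07 for Cd151, and all 7 reached 1 RPKM in either sort alone. No paired analysis was possible because there is 1 group. Depth limits the low genes: 89 to 250 reads stand behind Cd82 and Cd151.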
